A study of Homo sapiens with 16 samples.

Results

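Fibronectin, tenascin C and 7 other secreted glycoproteins of the extracellular matrix were followed through 16 RNA libraries of HT-1080, an established human fibrosarcoma cell line. The 9 genes are FN1, TNC, THBS1, THBS2, SPARC, CTHRC1, TGFBI, FBN1 and VCAN. They were picked by symbol, and all 9 were found among the 17552 genes with values. Libraries fall into 8 groups of 2. Cells carried control siRNA (siNS), DCAF8 siRNA (siDCAF8), DCAF8 and LSH siRNAs together (siDCAF8+siLSH), or overexpressed WDR76 (oeWDR76). Each of these 4 states was sampled untreated and after erastin at 10 µM for 24 h. Erastin blocks the cystine importer system xc- and drives ferroptosis, an iron-dependent death by lipid peroxidation. CRL4 ubiquitin ligases use DCAF8 to pick substrates, and WDR76, with its WD40 repeats, is another such receptor. The gene HELLS encodes LSH, which remodels nucleosomes. The overexpressing cells had no library with an empty vector beside them, so siNS served as their reference. The labels do not say that paired libraries are separate cultures, and every call below rests on their spread, which may be technical.

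Matrix glycoproteins are secreted, assembled outside the cell and read by integrins and syndecans at its surface. Fibronectin and fibrillin form fibrils on which other matrix proteins assemble. Thrombospondins, tenascin C and SPARC belong to the matricellular proteins, which modulate adhesion and growth factor access more than they bear load. Many of these genes respond to TGF-beta, and fibrosarcoma cells, being mesenchymal, are a natural source of them.

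Levels are FPKM, fragments scaled by transcript length and library total, which may be compared between genes because they are divided by length. Differences are given as log2(FPKM + 1) ± SE from a limma fit of all 8 groups, and a gene was called where the Benjamini-Hochberg adjusted p over the 11260 genes tested was under 0.05. The 9 genes were chosen with results of these data in view, and the values that steered the choice are not recorded. Their differences are therefore a description without p-values, and no count of them is evidence about matrix genes at large. In bulk RNA, a lower level in every cell and a smaller share of cells carrying the transcript cannot be told apart.

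The targeted genes were read first. DCAF8 stood at 38.9 and 40.4 FPKM in siNS, at 11.8 and 12.2 in siDCAF8, and at 17.4 and 14.3 in siDCAF8+siLSH, so the depletion was shallower in the doubly treated cells. No state had LSH siRNA alone. In differences between siDCAF8+siLSH and siDCAF8, LSH siRNA and the shallower DCAF8 depletion therefore cannot be told apart. HELLS stood at 4.05 and 3.98 FPKM in siNS, 6.83 and 7.45 in siDCAF8 and 4.05 and 4.07 in siDCAF8+siLSH. Its transcript was thus below siDCAF8 but not below siNS in untreated doubly treated cells. With erastin its mean was 2.24 in siDCAF8+siLSH against 3.48 in siNS (limma adjusted p = 2.1e-05), and in oeWDR76 it was 10.9 with or without erastin. WDR76 stood at 3.52 and 2.89 FPKM in siNS and at 268 and 267 in oeWDR76. The mesenchymal marker VIM lay between 1273 and 2067 FPKM in all libraries, while COL1A2 and THY1, also mesenchymal, lay between 0 and 1.24 and between 0 and 0.14. The 6 epithelial markers with values summed to at most 6.28 FPKM, the 5 endothelial markers to between 67.93 and 88.18, nearly all of it TIE1 (66.41 to 86.06), and the 6 leukocyte markers to between 5.7 and 8.84. The part of other cell types in the results was not tested. The oeWDR76 libraries stood apart: relative to each gene's mean their levels climbed with GC content, at slopes of 0.185 to 0.230 log2 per 10% GC, against -0.154 to 0.028 in the other 12 libraries. Values corrected for GC and transcript length are given where that changes a call, a sign or a called size by more than 1.5 times for a member or for a list gene named with its values. The part of this trend in the oeWDR76 differences was otherwise not tested.

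The spread of the 9 genes was wide. Fibronectin held a 15.3-fold range between its highest and lowest group mean, THBS1 8.76-fold, FBN1 5.81-fold, THBS2 4.60-fold, CTHRC1 4.03-fold, VCAN 3.78-fold, TGFBI 3.49-fold, TNC 3.44-fold and SPARC 2.16-fold. Their abundance differed as much. FN1 and SPARC were the 101st and 479th most abundant of 17552 genes in untreated siNS cells, whereas VCAN ranked 12179th.

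**Figure D1:**
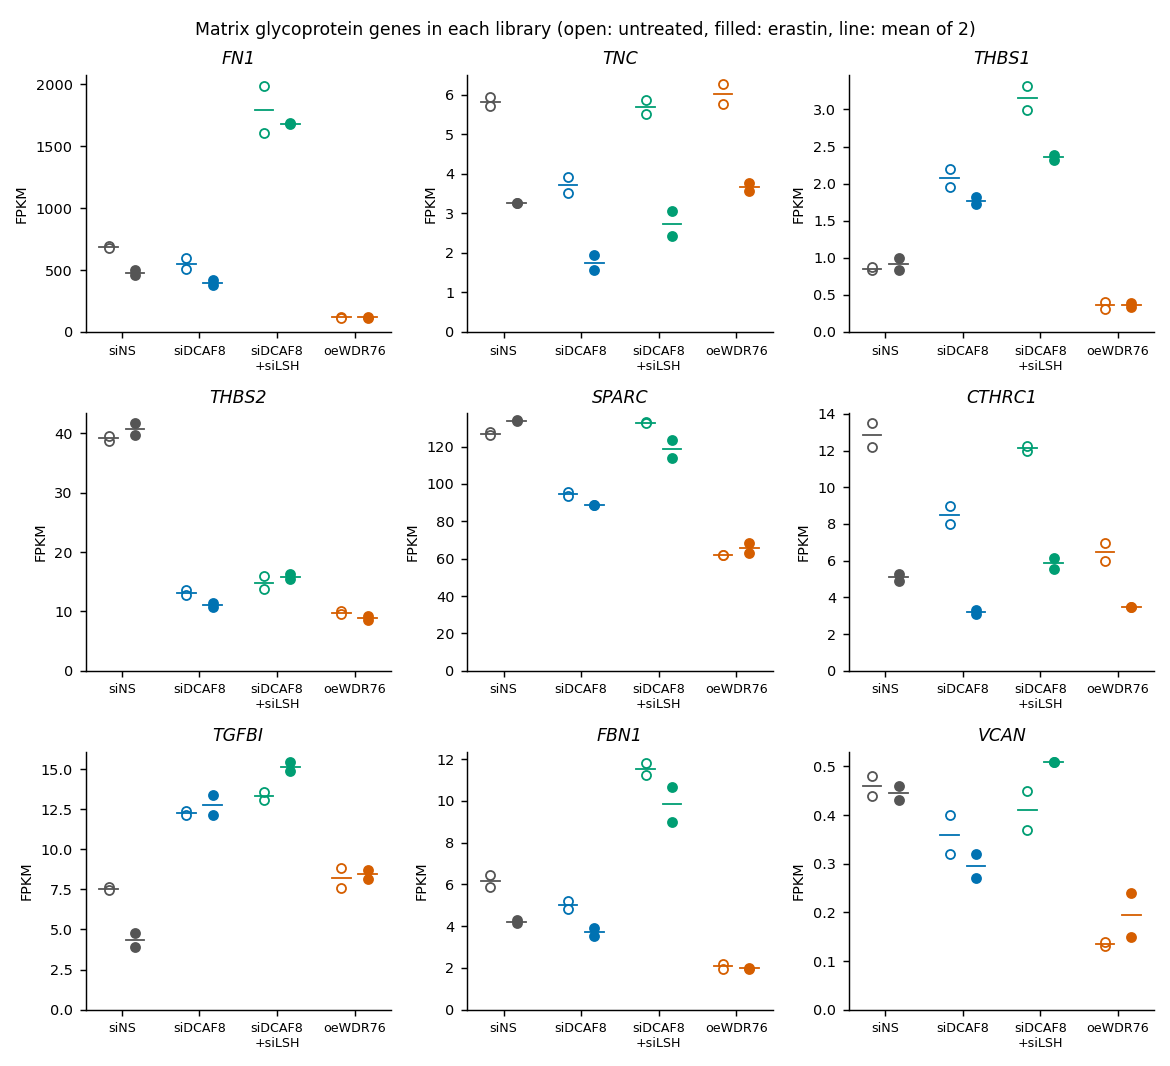
FPKM of the 9 matrix glycoprotein genes (1 panel each, linear axis from 0) in every library of the 4 states, with untreated libraries as open circles, erastin-treated libraries as filled circles and a line at the mean of 2. FN1 lies between 1609 and 1986 FPKM in siDCAF8+siLSH and between 111 and 123 in oeWDR76, THBS2 is high in siNS only, and CTHRC1 and TNC drop with erastin in all 4 states.

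Sequence upstream of the start was taken from RefSeq on GRCh38.p14, where 8 of the 9 genes had an entry. FN1 is shown for its range, THBS1 and THBS2 because they moved in opposite directions under DCAF8 siRNA, and TNC because it fell with erastin in all 4 states. The first 2 are the 250 bases before the start of FN1 (chr2:215436069-215436318, minus strand) and of THBS1 (chr15:39580829-39581078, plus strand). The last 2 are 30-base windows of THBS2 (chr6:169253920-169253949, minus strand) and TNC (chr9:115118168-115118197, minus strand). For FN1, THBS2 and TNC the RefSeq start used here lies inside the gene span that the deposited table gives, so the THBS2 and TNC windows are upstream of that start but within that span. All are written 5′ to 3′ along the gene. Capitals mark a cAMP response element (TGACGTCA), a CCAAT box on either strand, a TATAA box or the TEAD-type element GGAATG on either strand.
FN1: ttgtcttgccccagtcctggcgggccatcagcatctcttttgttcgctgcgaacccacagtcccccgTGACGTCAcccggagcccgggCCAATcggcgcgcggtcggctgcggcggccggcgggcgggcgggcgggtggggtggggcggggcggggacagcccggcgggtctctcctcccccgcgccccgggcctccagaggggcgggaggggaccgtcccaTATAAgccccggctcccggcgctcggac
THBS1: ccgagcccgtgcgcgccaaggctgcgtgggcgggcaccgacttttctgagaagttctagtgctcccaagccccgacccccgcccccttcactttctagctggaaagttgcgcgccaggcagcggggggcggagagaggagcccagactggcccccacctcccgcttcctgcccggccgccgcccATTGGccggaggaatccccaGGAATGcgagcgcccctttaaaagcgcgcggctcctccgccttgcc
THBS2: CATTCCttcgaaGGAATGaattaaacgtgc
TNC: aaggagctcgctaTATAAgccagccaaagt
Counted back from the start, which follows position -1, the element of FN1 lies at -183 to -176, its CCAAT box at -162 to -158 and its TATAA box at -28 to -24. TGACGTCA occurs in 1.77% of 27305 RefSeq promoters of 250 bases, CCAAT in 33% and TATAA in 19.6%, each searched on both strands. GGAATG occurs in 11.9% of them. It was found in 4 of the 8 windows, with 2 copies in THBS2 (-103 to -98 and -91 to -86) and 1 each in THBS1, SPARC and FBN1. The AP-1 element TGANTCA, present in 6.6% of all promoters, was found in none of the 8, and the GC box GGGCGG, present in 42.3%, was found in 5 of them, FN1, TNC, THBS1, TGFBI and VCAN. FN1 carried 6 copies, all between -129 and -97 except 1 at -49 to -44, and THBS1 carried 4. A match describes the letters only.

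Fibronectin, the dimeric glycoprotein on whose fibrils integrin α5β1 pulls, is encoded by FN1 (gene number 2335, chr2:215360440-215436070 on GRCh38, minus strand, 10 transcripts in the table). Its untreated levels were 692 and 676 FPKM in siNS, 593 and 506 in siDCAF8, 1986 and 1609 in siDCAF8+siLSH, and 123 and 111 in oeWDR76. After erastin they were 498 and 457, 376 and 418, 1679 and 1689, and 119 and 116 in the same order. Doubly treated cells were the highest and WDR76-overexpressing cells the lowest, with no overlap between either and the remaining groups. In untreated cells FN1 rose by 1.39 ± 0.09 log2 in siDCAF8+siLSH against siNS and fell by 2.54 ± 0.09 in oeWDR76. The latter was the 13th lowest difference of the 11260 genes and was -2.20 after the GC and length correction. FN1 was higher in siDCAF8+siLSH than in siDCAF8 alone by 1.70 ± 0.09 untreated and 2.08 ± 0.09 with erastin. These were the 4th and the 2nd highest differences of all genes tested. FN1 thereby moved from rank 101 in siNS to rank 23 in siDCAF8+siLSH and rank 657 in oeWDR76 by abundance.

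DCAF8 siRNA alone had a small effect on FN1. The differences from siNS were -0.32 ± 0.09 untreated and -0.27 ± 0.09 with erastin, both called. Neither call held under quantile normalization, where they were -0.16 and -0.04, and the second was also lost without a filter on low values (-0.27). Leaving out siDCAF8 replicate 2 gave -0.20 untreated, and leaving out siNS/Erastin replicate 1 or siDCAF8/Erastin replicate 1 gave -0.20 and -0.19 with erastin, each below the threshold. Erastin itself lowered FN1 by 0.52 ± 0.09 log2 in siNS and by 0.47 ± 0.09 in siDCAF8. In siDCAF8+siLSH and oeWDR76 the treated and untreated libraries overlapped, with differences of -0.09 ± 0.09 and 0.01 ± 0.09 that were not called.

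Fibrillin 1, the backbone of elastic microfibrils and a store for latent TGF-beta, is encoded by FBN1 (gene number 2200, chr15:48408306-48645788, minus strand). Untreated levels were 6.45 and 5.85 FPKM in siNS, 5.21 and 4.84 in siDCAF8, 11.8 and 11.2 in siDCAF8+siLSH and 2.18 and 1.97 in oeWDR76. With erastin they were 4.28 and 4.15, 3.51 and 3.92, 10.7 and 9, and 1.96 and 2.01. The order of the 4 states was that of FN1, at far lower abundance, and the 8 group means of the 2 genes had a Pearson r of 0.99 on the log2 scale. FBN1 rose by 0.81 ± 0.09 log2 in siDCAF8+siLSH against siNS and by 1.06 ± 0.09 against siDCAF8, and with erastin by 1.05 ± 0.09 and 1.20 ± 0.09. It fell by 1.22 ± 0.09 in oeWDR76 untreated and by 0.80 ± 0.09 with erastin. These falls stayed called but shrank to -0.69 and -0.20 after the GC and length correction.

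Untreated siDCAF8 cells had 0.25 ± 0.09 log2 less FBN1 than siNS, a call lost without siNS replicate 1 (-0.19) or siDCAF8 replicate 2 (-0.20). With erastin the same difference was -0.15 ± 0.09 and was not called, although it was called after the GC and length correction, at -0.18. Erastin lowered FBN1 by 0.45 ± 0.09 in siNS and 0.35 ± 0.09 in siDCAF8. Its differences of -0.21 ± 0.09 in siDCAF8+siLSH and -0.04 ± 0.09 in oeWDR76 were not called, the first becoming called at -0.33 without siDCAF8+siLSH/Erastin replicate 1 and at -0.24 after the correction.

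The 2 thrombospondins went opposite ways under DCAF8 siRNA. Thrombospondin 1, a trimeric matricellular protein that can release latent TGF-beta and bind CD47, is encoded by THBS1 (gene number 7057, chr15:39581079-39598918, plus strand). It was scarce, at 0.84 and 0.87 FPKM in untreated siNS and 0.41 and 0.31 in oeWDR76, and it passed the filter of a mean of 1 FPKM only through the groups with DCAF8 siRNA. There it reached 2.20 and 1.95 FPKM in siDCAF8 and 3.32 and 2.99 in siDCAF8+siLSH. With erastin the levels were 0.84 and 1 in siNS, 1.72 and 1.82 in siDCAF8, 2.39 and 2.32 in siDCAF8+siLSH, and 0.34 and 0.39 in oeWDR76. Every siDCAF8 or siDCAF8+siLSH library was above every siNS library, and every oeWDR76 library was below them.

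THBS1 rose by 0.73 ± 0.09 log2 in siDCAF8 and 1.16 ± 0.09 in siDCAF8+siLSH against siNS, and by 0.53 ± 0.09 and 0.81 ± 0.09 with erastin. At this abundance the pseudocount of 1 shrinks differences. With a pseudocount of 0.1 these 4 values were 1.19, 1.77, 0.88 and 1.27. Since THBS1 was tested only because it is high in those groups, its calls against siNS are read as values. In oeWDR76 the differences were -0.45 ± 0.09 untreated and -0.49 ± 0.09 with erastin, both past the threshold, and were -1.06 and -1.13 with a pseudocount of 0.1, but they were -0.12 and -0.11 and not called after the GC and length correction. From siDCAF8 to siDCAF8+siLSH, THBS1 rose by a further 0.43 ± 0.09. With erastin that step was 0.28 ± 0.09, and it lost its call without any 1 of the 4 libraries involved, at 0.25 and 0.30 when replicate 1 or 2 of siDCAF8/Erastin was dropped and 0.26 and 0.29 when replicate 1 or 2 of siDCAF8+siLSH/Erastin was. It was also lost with a pseudocount of 0.1 (0.39) and with quantile normalization (0.19).

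Erastin lowered THBS1 in siDCAF8+siLSH by 0.31 ± 0.09 log2, against differences of 0.05 ± 0.09 in siNS, -0.15 ± 0.09 in siDCAF8 and 0.01 ± 0.09 in oeWDR76 that were not called. The difference between these responses was not called either, at -0.16 ± 0.13 for siDCAF8+siLSH against siDCAF8. The single call was lost when a doubly treated library was left out, be it untreated replicate 1 (-0.25) or 2 (-0.36) or erastin replicate 1 (-0.32) or 2 (-0.29), as well as with a pseudocount of 0.1 (-0.41) and in a fit of only the groups compared (-0.31).

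Thrombospondin 2, the close paralog that restrains angiogenesis and collagen fibril thickness, is encoded by THBS2 (gene number 7058, chr6:169215780-169254114, minus strand). It was high in siNS only. Untreated levels were 38.8 and 39.5 FPKM in siNS, 13.6 and 12.8 in siDCAF8, 16 and 13.7 in siDCAF8+siLSH and 10.0 and 9.54 in oeWDR76. Erastin-treated libraries had 41.7 and 39.7, 10.7 and 11.4, 15.5 and 16.3, and 8.55 and 9.15. The highest library outside siNS had 16.3 FPKM and the lowest within it 38.8.

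In untreated cells THBS2 was lower than in siNS by called differences of -1.501 ± 0.07 log2 in siDCAF8, -1.34 ± 0.07 in siDCAF8+siLSH and -1.899 ± 0.07 in oeWDR76. With erastin the called differences were -1.79 ± 0.07, -1.30 ± 0.07 and -2.08 ± 0.07. All 6 differences were measured against the same siNS libraries. From siDCAF8 to siDCAF8+siLSH, THBS2 changed by 0.16 ± 0.07 untreated, which was not called. That step became called at 0.26 without siDCAF8+siLSH replicate 2 and at 0.24 after the GC and length correction. With erastin the step was a rise of 0.48 ± 0.07. Erastin lowered THBS2 in siDCAF8 by 0.23 ± 0.07, a call lost without siDCAF8 replicate 1 (-0.19) or siDCAF8/Erastin replicate 1 (-0.19) and after the correction (-0.15). It had no called effect in siNS (0.05 ± 0.07), oeWDR76 (-0.13 ± 0.07) or siDCAF8+siLSH (0.09 ± 0.07).

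SPARC (osteonectin, a collagen-binding matricellular protein, gene number 6678, chr5:151661096-151687054, minus strand) was the steadiest of the 9. Untreated levels were 128 and 126 FPKM in siNS, 95.6 and 93.8 in siDCAF8, 133 and 133 in siDCAF8+siLSH and 61.9 and 61.7 in oeWDR76. The levels after erastin were 133 and 134, 88.5 and 88.8, 123 and 114, and 63.0 and 68.1. SPARC fell by 0.42 ± 0.05 log2 in siDCAF8 and by 1.03 ± 0.05 in oeWDR76, and by 0.59 ± 0.05 and 1.02 ± 0.05 with erastin. In siDCAF8+siLSH it was back at the siNS level untreated, at 0.07 ± 0.05 against siNS (-0.03 with quantile normalization) and 0.48 ± 0.05 above siDCAF8.

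With erastin, siDCAF8+siLSH cells held 0.17 ± 0.05 log2 less SPARC than siNS, -0.26 with median-ratio scaling, and 0.41 ± 0.05 more than siDCAF8. The first of these calls was lost at -0.12 (-0.115) without siDCAF8+siLSH/Erastin replicate 2. Erastin lowered SPARC in siDCAF8+siLSH, with a difference of -0.16 ± 0.05. That call was lost without siDCAF8+siLSH replicate 1 (-0.16) or 2 (-0.17), without siDCAF8+siLSH/Erastin replicate 2 (-0.10), with quantile normalization (-0.10) and in a fit of only the groups compared (-0.16). The erastin differences in siNS (0.08 ± 0.05), siDCAF8 (-0.09 ± 0.05) and oeWDR76 (0.08 ± 0.05) were not called.

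Tenascin C, a hexameric matricellular protein of remodelling stroma that loosens adhesion to fibronectin, is encoded by TNC (gene number 3371, chr9:115019575-115118257, minus strand). Untreated levels were 5.95 and 5.71 FPKM in siNS, 3.91 and 3.52 in siDCAF8, 5.52 and 5.86 in siDCAF8+siLSH and 5.77 and 6.28 in oeWDR76. Under erastin they stood at 3.26 and 3.27, 1.94 and 1.56, 3.06 and 2.42, and 3.77 and 3.57. In each of the 4 states both treated libraries lay below both untreated ones. The fall with erastin was 0.68 ± 0.09 log2 in siNS, 0.78 ± 0.09 in siDCAF8, 0.84 ± 0.09 in siDCAF8+siLSH and 0.59 ± 0.09 in oeWDR76. The fall in siDCAF8+siLSH was the 13th lowest difference of all genes tested and that in oeWDR76 the 30th lowest. The oeWDR76 call was lost without oeWDR76 replicate 2 (-0.54) or oeWDR76/Erastin replicate 2 (-0.56).

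TNC was lower in siDCAF8 than in siNS by 0.54 ± 0.09 untreated and 0.64 ± 0.09 with erastin. It was higher in siDCAF8+siLSH than in siDCAF8 by 0.51 ± 0.09 and 0.44 ± 0.09. The difference of siDCAF8+siLSH from siNS was -0.03 ± 0.09 untreated, with overlapping libraries, and -0.19 ± 0.09 with erastin. The latter was not called, but became so without siDCAF8+siLSH/Erastin replicate 1 (-0.32) and with median-ratio scaling (-0.26) or quantile normalization (-0.25). Against siNS, oeWDR76 differed by 0.04 ± 0.09 untreated and 0.13 ± 0.09 with erastin, neither called. After the GC and length correction these were 0.29 and 0.43, both called.

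CTHRC1, a secreted collagen triple helix repeat protein of migrating and wound-repairing cells, had the steepest fall with erastin of the 8 members tested (gene number 115908, chr8:103371515-103383005, plus strand). Untreated levels were 13.5 and 12.2 FPKM in siNS, 7.98 and 8.97 in siDCAF8, 11.97 and 12.3 in siDCAF8+siLSH and 6.97 and 5.98 in oeWDR76. After erastin they were 5.27 and 4.91, 3.31 and 3.07, 5.55 and 6.17, and 3.47 and 3.49. Treated and untreated libraries did not overlap in any of the 4 states. CTHRC1 fell by 1.18 ± 0.08 log2 in siNS, 1.18 ± 0.08 in siDCAF8, 0.94 ± 0.08 in siDCAF8+siLSH and 0.74 ± 0.08 in oeWDR76. Among all genes tested these were the 24th, 9th, 8th and 17th lowest erastin differences.

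Between the states, CTHRC1 was low where SPARC was low in untreated cells. It fell by 0.55 ± 0.08 in siDCAF8 and 0.89 ± 0.08 in oeWDR76 against siNS, and it stood at -0.08 ± 0.08 in siDCAF8+siLSH with overlapping libraries. With erastin the differences from siNS were -0.54 ± 0.08, -0.44 ± 0.08 and 0.17 ± 0.08, of which the last was not called. The oeWDR76 value with erastin was -0.72 after the GC and length correction. CTHRC1 was higher in siDCAF8+siLSH than in siDCAF8 by 0.47 ± 0.08 untreated (0.29 after the correction) and by 0.71 ± 0.08 with erastin.

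TGFBI, the TGF-beta-induced protein that links collagen VI to integrins (gene number 7045, chr5:136028895-136063818, plus strand), was lowest in erastin-treated siNS cells. Untreated levels were 7.66 and 7.44 FPKM in siNS, 12.4 and 12.2 in siDCAF8, 13.1 and 13.6 in siDCAF8+siLSH and 7.58 and 8.83 in oeWDR76. With erastin they were 3.92 and 4.76, 13.4 and 12.1, 14.9 and 15.5, and 8.15 and 8.73. Erastin lowered TGFBI by 0.68 ± 0.08 log2 in siNS. In siDCAF8 and oeWDR76 the differences were 0.05 ± 0.08 and 0.04 ± 0.08, with overlapping libraries, and in siDCAF8+siLSH 0.18 ± 0.08, none of them called. The erastin response in siDCAF8 exceeded that in siNS by 0.73 ± 0.12 and the response in oeWDR76 exceeded it by 0.72 ± 0.12, both called in each alternative run, all with the same siNS libraries as reference.

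TGFBI rose by 0.64 ± 0.08 in siDCAF8 and 0.74 ± 0.08 in siDCAF8+siLSH against siNS untreated, and by 1.37 ± 0.08 and 1.60 ± 0.08 with erastin. In oeWDR76 the difference was 0.10 ± 0.08 untreated, not called, and -0.12 after the GC and length correction. With erastin TGFBI was 0.83 ± 0.08 higher in oeWDR76 than in siNS. From siDCAF8 to siDCAF8+siLSH it changed little, by 0.11 ± 0.08 untreated, not called, and by a called 0.23 ± 0.08 with erastin. That call was lost without siDCAF8/Erastin replicate 2 (0.17) or siDCAF8+siLSH/Erastin replicate 1 (0.26) or 2 (0.21), without a filter on low values (0.23), with median-ratio scaling (0.18) and after the correction (0.13).

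Versican, the large chondroitin sulfate proteoglycan that binds hyaluronan, is encoded by VCAN (gene number 1462, chr5:83471674-83582303, plus strand). It never reached 1 FPKM and was not among the 11260 genes tested. Untreated levels were 0.48 and 0.44 FPKM in siNS, 0.32 and 0.40 in siDCAF8, 0.45 and 0.37 in siDCAF8+siLSH and 0.13 and 0.14 in oeWDR76. Erastin-treated libraries had 0.43 and 0.46, 0.27 and 0.32, 0.51 and 0.51, and 0.24 and 0.15. Each oeWDR76 library was below each library of the other states. In a fit without the filter on low values, VCAN stood at -0.36 in oeWDR76 against siNS untreated and -0.28 with erastin, and at 0.22 in siDCAF8+siLSH against siDCAF8 with erastin.

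Counts over the 8 members tested are set beside the share of all genes that passed the same threshold, and nothing is read from them. They include THBS1, which passed the filter only through the groups where it is high. Of the 7 members other than THBS1, erastin lowered 3 in siDCAF8+siLSH. Erastin lowered 5 of 8 in siNS, where 37.5% of all genes were called and 22.4% were called lower, and 5 of 8 in siDCAF8, where 40.9% were called and 22.5% lower. It lowered 4 of 8 in siDCAF8+siLSH (20.2% of all genes called, 9.54% lower) and 2 of 8, TNC and CTHRC1, in oeWDR76 (1.45% called, 0.977% lower). No member was called higher with erastin in any state. The median erastin difference of the members was -0.49 log2 in siNS, -0.29 in siDCAF8, -0.19 in siDCAF8+siLSH and -0.02 in oeWDR76, against medians of -0.03, -0.02, 0.01 and 0.01 over all genes. The count in siDCAF8+siLSH was 2 without siDCAF8+siLSH replicate 1, siDCAF8+siLSH replicate 2 or siDCAF8+siLSH/Erastin replicate 2. In oeWDR76 it was 1 without oeWDR76 replicate 2 or oeWDR76/Erastin replicate 2. Counts of all genes called moved too, over all alternatives from 1247 to 2530 in siDCAF8+siLSH and from 27 to 270 in oeWDR76.

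**Figure D2:**
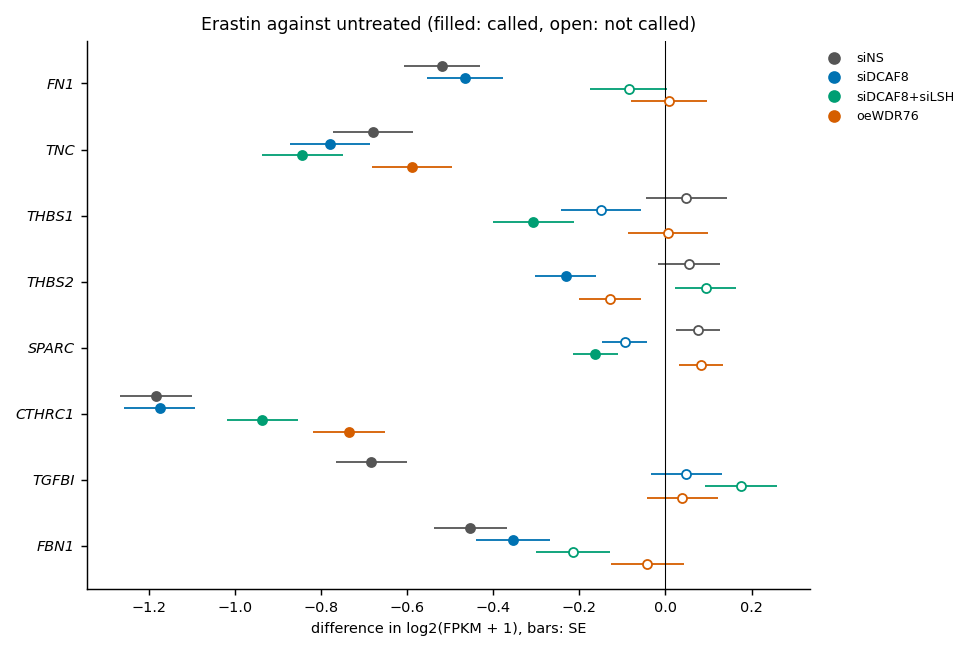
Difference in log2(FPKM + 1) between erastin-treated and untreated libraries (horizontal axis, bars show SE) for the 8 members tested, in 4 colours for the 4 states, with filled points where the gene was called. CTHRC1 and TNC lie left of 0 in all 4 states, and TGFBI lies left of 0 in siNS only.

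Against siNS in untreated cells, siDCAF8 had 2 members higher and 6 lower, where 61.0% of all genes were called, 31.0% higher and 29.9% lower. The median of the members was -0.37 log2 against 0.01 over all genes. In oeWDR76 there were 0 higher and 6 lower (73.6% of all genes called, 41.6% higher and 32.0% lower), with a median of -0.96 against 0.07. After the GC and length correction TNC was called higher in oeWDR76 (0.29) and THBS1 was not called (-0.12). In siDCAF8+siLSH there were 4 higher and 1 lower (66.8% called, 35.9% and 30.9%), with a median of 0.40 against 0.03. Against siDCAF8, siDCAF8+siLSH had 6 higher and 0 lower (48.2% called, 26.4% and 21.7%), with a median of 0.48 against 0.03. Over the 7 members other than THBS1 these counts were 1 and 6, 0 and 5, 3 and 1, and 5 and 0, with medians of -0.42, -1.02, 0.07 and 0.48.

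With erastin the corresponding counts were 2 higher and 5 lower in siDCAF8 (64.8% of all genes called, 34.8% higher and 30% lower), 1 and 6 in oeWDR76 (76.2% called, 45.2% and 31.0%), and 4 and 2 in siDCAF8+siLSH (66.0% called, 39.3% and 26.7%). In erastin-treated oeWDR76, too, TNC was called higher (0.43) and THBS1 was not called (-0.11) after the GC and length correction. Relative to siDCAF8, siDCAF8+siLSH with erastin had 8 higher and 0 lower (49.7% called, 30.4% and 19.3%). Over the 7 members other than THBS1 these counts with erastin were 1 and 5, 1 and 5, 3 and 2, and 7 and 0. Differences of erastin responses were called higher for 1 member in siDCAF8 against siNS (20.8% of all genes called, 11.0% higher), 4 in oeWDR76 against siNS (14.1% called, 9.04% higher) and 2 in siDCAF8+siLSH against siDCAF8 (23.5% called, 14.2% higher), and lower for 0 in each (9.84%, 5.11% and 9.24%). The first count was 2 without siDCAF8+siLSH replicate 1 or 2. The second was 1 without oeWDR76 replicate 2 and 2 without siNS replicate 1, siNS/Erastin replicate 2 or either oeWDR76/Erastin replicate. The last was 0 without siDCAF8 replicate 1, siDCAF8/Erastin replicate 1, siDCAF8+siLSH replicate 2 or either siDCAF8+siLSH/Erastin replicate. Over all alternatives, all genes called ran from 1315 to 2603, from 906 to 1973 and from 267 to 3003 in the same order.

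**Figure D3:**
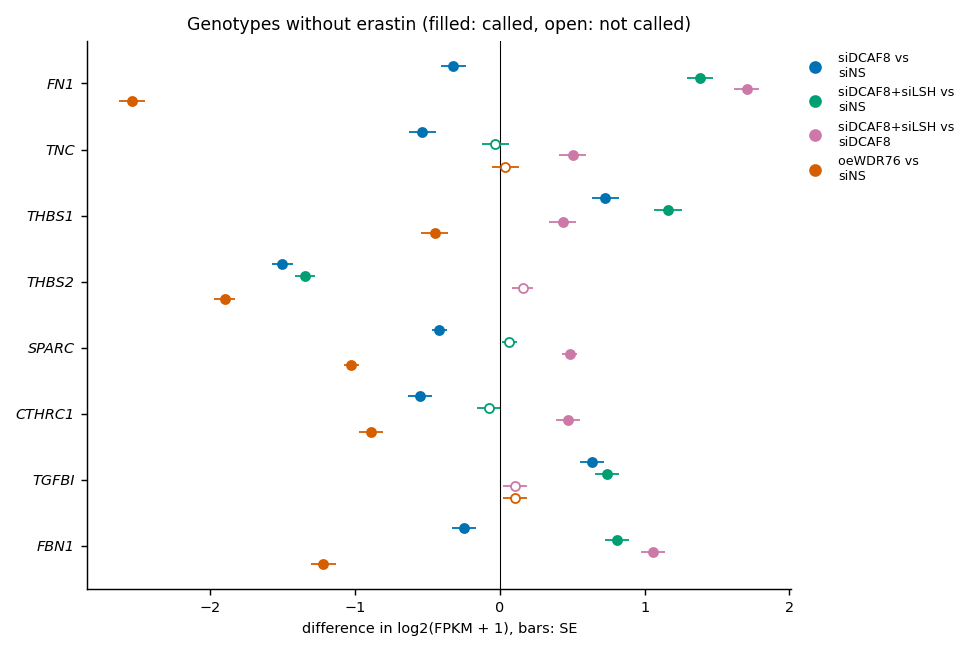
Difference in log2(FPKM + 1) between states without erastin (horizontal axis, bars show SE) for the 8 members tested, in 4 colours for the 4 comparisons, with filled points where the gene was called. FN1 spans from -2.54 in oeWDR76 to 1.70 in siDCAF8+siLSH against siDCAF8, and THBS1 and THBS2 lie on opposite sides of 0 in siDCAF8 and in siDCAF8+siLSH against siNS.

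Patterns of the 9 genes over the 8 group means are given as Pearson r of log2(FPKM + 1) without a test, since the points share libraries and a GC trend. FN1 with FBN1 gave 0.99 and SPARC with VCAN 0.95. FN1 gave 0.89 with VCAN, 0.87 with THBS1 and 0.87 with SPARC, and FBN1 gave 0.85 with THBS1, 0.84 with VCAN and 0.83 with SPARC. TNC had its highest r among the members with CTHRC1, at 0.75. THBS1 with THBS2 gave 0.01, and THBS2 with TGFBI gave -0.58. Of the other 11259 genes tested, the pattern most like FN1 was that of IGFBP7 (0.99), and that most like THBS1 was RESF1 (0.99). SPARC was most like RASSF8 (0.99), FBN1 like CEMIP2 (0.99), TGFBI like ARL14 (0.99) and CTHRC1 like XDH (0.97). TNC had the least close neighbour, PARK7 (0.95). For VCAN, searched among all 11260, it was CD4 (0.98).

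The members' surroundings in the pathway were read from 5 lists of 131 other matrix genes, of which 126 had values and 77 were tested. More of them fell than rose in all 3 states against siNS. In untreated cells 13 rose and 38 fell in siDCAF8 (median -0.18 log2), 14 rose and 44 fell in oeWDR76 (-0.34), and 8 rose and 50 fell in siDCAF8+siLSH (-0.31). The medians over all genes were 0.01, 0.07 and 0.03, and the shares of all genes called lower were 29.9%, 32.0% and 30.9%. Of the members, FN1, TGFBI and FBN1 were called higher in untreated siDCAF8+siLSH and THBS2 lower. THBS1 was higher too, but it passed the filter only through groups where it is high. Members and lists were both chosen with earlier results of these data known, so no contrast between them is drawn. The counts, medians and p-values of the lists are likewise a description and no evidence about matrix genes at large. With erastin 12 of the listed genes were higher and 46 lower in siDCAF8, 22 and 45 in oeWDR76, and 16 and 45 in siDCAF8+siLSH. Their medians were -0.34, -0.24 and -0.31, against 0.03, 0.11 and 0.07 over all genes, of which 64.8%, 76.2% and 66.0% were called. The comparisons share the siNS libraries.

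**Figure D4:**
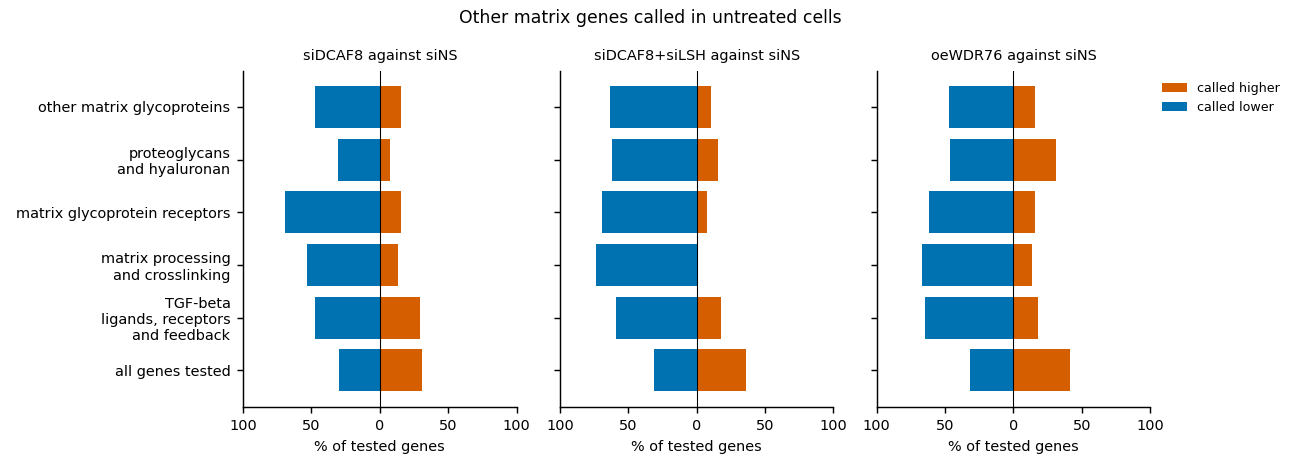
Share of tested genes called higher (right of 0) and lower (left of 0) in untreated cells against siNS, in percent, for the 5 lists of other matrix genes and for all 11260 genes, with 1 panel per state. The left bars of the lists are longer than their right bars in all 3 panels, and in siDCAF8+siLSH no gene of matrix processing and crosslinking is called higher.

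The counts of each list that follow are to be read against the shares of all genes called in untreated cells, 31.0% higher and 29.9% lower in siDCAF8, 41.6% and 32.0% in oeWDR76, and 35.9% and 30.9% in siDCAF8+siLSH. Of 19 other matrix glycoproteins tested, 3 rose and 9 fell in untreated siDCAF8, 3 rose and 9 fell in oeWDR76, and 2 rose and 12 fell in siDCAF8+siLSH. The matricellular CCN2 (connective tissue growth factor) fell from 107.8 FPKM in siNS to 20.7 in siDCAF8 (limma adjusted p = 2e-11) and 9.54 in oeWDR76 (2.6e-14), the 4th and the 3rd lowest differences of all genes. EFEMP1, a fibulin of elastic fibres, rose from 106.1 FPKM in siNS to 168.5 in siDCAF8 (limma adjusted p = 1.1e-08) and 360.8 in siDCAF8+siLSH (2.2e-13), and fell to 64.7 in oeWDR76 (1.7e-09). Its relative EFEMP2 fell from 30.2 to 12.9 FPKM in siDCAF8+siLSH (limma adjusted p = 2.1e-09). LTBP1, which tethers latent TGF-beta to fibronectin and fibrillin, fell from 103.3 to 56.9 FPKM in siDCAF8 (limma adjusted p = 2.4e-09) and to 39.1 in oeWDR76 (1.7e-12). ECM1 fell from 24.9 to 6.47 FPKM in siDCAF8 (limma adjusted p = 4.9e-10).

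Among receptors that bind these glycoproteins more fell than rose. Of 13 tested, 2 rose and 9 fell in untreated siDCAF8, 2 rose and 8 fell in oeWDR76, and 1 rose and 9 fell in siDCAF8+siLSH. ITGAV, the αV integrin chain for fibronectin, tenascin C and TGFBI, fell from 49.97 FPKM in siNS to 9.80 in oeWDR76 (limma adjusted p = 5.9e-14). ITGB3, its β3 partner, fell from 16.2 FPKM to 8.46 in siDCAF8 (limma adjusted p = 9e-07), 5.62 in oeWDR76 (1.3e-09) and 5.74 in siDCAF8+siLSH (3.5e-09). SDC4, the syndecan that acts with integrins on fibronectin, rose from 31.1 to 70.3 FPKM in siDCAF8 (limma adjusted p = 2.7e-10) and 97.0 in oeWDR76 (7.5e-13).

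Among 15 genes of matrix processing and crosslinking, 2 rose and 8 fell in untreated siDCAF8, 2 rose and 10 fell in oeWDR76, and 0 rose and 11 fell in siDCAF8+siLSH. PLOD2, a collagen lysyl hydroxylase, fell from 156.4 FPKM in siNS to 38.0 in siDCAF8 (limma adjusted p = 1.9e-12), 49.3 in oeWDR76 (1.5e-12) and 47.4 in siDCAF8+siLSH (5.2e-12). Lysyl oxidase, encoded by LOX, fell from 32.9 FPKM to 10.3, 14.6 (14.55) and 18.8 in the same states (limma adjusted p = 2.9e-10, 3.3e-09 and 4.8e-07). Of 13 genes of proteoglycans and hyaluronan, 1 rose and 4 fell in siDCAF8, 4 rose and 6 fell in oeWDR76, and 2 rose and 8 fell in siDCAF8+siLSH. In siDCAF8 the share of this list called lower is near that of all genes, and its median was 0.01, as over all genes. Perlecan, encoded by HSPG2, fell from 21.1 to 4.77 FPKM in oeWDR76 (limma adjusted p = 1.5e-11), and SPOCK1 rose from 43.9 to 80.7 FPKM in siDCAF8 (4.6e-09).

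Of 17 TGF-beta ligands, receptors and feedback genes tested, 5 rose and 8 fell in untreated siDCAF8, 3 rose and 11 fell in oeWDR76, and 3 rose and 10 fell in siDCAF8+siLSH. TGFBR1, the type I receptor, fell from 19.97 FPKM to 11.1 in siDCAF8 (limma adjusted p = 5.4e-08) and 10.5 in siDCAF8+siLSH (1.3e-08). PMEPA1, a feedback inhibitor, rose from 2.79 to 7.97 FPKM in siDCAF8+siLSH (limma adjusted p = 3.1e-09).

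With erastin in siNS, 12 of the 77 listed genes rose and 18 fell (median -0.03 log2, as over all genes, of which 15.1% were called higher and 22.4% lower). CCN1, a matricellular relative of CCN2, rose from 255.7 to 574.9 FPKM (limma adjusted p = 5e-07), while TGFBR2, the type II TGF-beta receptor, fell from 41.1 to 24.2 (3.5e-07). In siDCAF8, 11 rose and 31 fell (18.3% and 22.5% of all genes), and in siDCAF8+siLSH 14 rose and 18 fell (10.6% and 9.54%), or 12 and 10 in a fit of only the groups compared. In oeWDR76 4 rose and 0 fell, or 4 and 1 with median-ratio scaling, where just 1.45% of all genes were called. The count in siDCAF8+siLSH fell from 32 to 18 without siDCAF8+siLSH replicate 2 and to 15 without siDCAF8+siLSH/Erastin replicate 2. In oeWDR76 it fell from 4 to 2 without oeWDR76 replicate 1 or either oeWDR76/Erastin replicate. Over all alternatives, all genes called ran from 1247 to 2530 in siDCAF8+siLSH (2270 in the main fit) and from 27 to 270 in oeWDR76 (163). These drops are therefore not read as a trait of the listed genes.

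Neighbouring genes limit some of these values. By the RefSeq annotation 7 of the 9 members overlap another gene, counting whole gene spans with their introns. Among them are FN1 with ATIC (7728 bases) and the divergent transcript FN1-DT, THBS1 with FSIP1 (2027 bases) and THBS2 with THBS2-AS1. Whether counting used the strand was not stated, so reads of overlapping genes cannot be told apart.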

How the data were processed

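RNA of HT-1080 cells was amplified with Smart-seq v4 and sequenced on a BGISEQ500, per the labels' protocols. FPKM values were deposited by the authors to 2 decimals. StringTie and GRCh38 are named in the submitters' processing notes. Its version, the read aligner and the gene models are not given in the sources used. Of 24107 entries, 17552 carry values. Library totals ran from 436290 to 503867 FPKM. No counts were used, so the depth is unknown, and the precision known here is the agreement within groups of 2 (r on the log2(FPKM + 1) scale 0.996 to 0.997, median SD 0.046 to 0.068 log2).

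The 11260 genes whose mean reached 1 FPKM were fitted as log2(FPKM + 1). The model was built in R 4.3.3 with limma 3.58.1 (eBayes with an intensity trend), using 8 group means, 8 residual and 8.57 prior degrees of freedom. Benjamini-Hochberg adjustment of two-sided p-values was done separately for 15 comparisons. On simulated data of the siNS erastin comparison (11260 genes, 200 changed), 87% of genes changed by 0.5 log2 and 98.8% changed by 1 were called, with 4.77% and 5.13% of calls false. The simulated noise was independent and normal, with each gene's spread taken from these same pairs of libraries. These rates therefore do not cover variation between cultures or the GC trend. Python 3.11.15, pandas 2.3.3 and matplotlib 3.10.9 prepared tables and plots.

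The members and lists were chosen with earlier results of these data known. All members are named. Of each list, up to 4 called genes with the lowest p and no overlap between groups could be named, or 2 where none was called. The 2 genes most like each member were ranked by r, and the first other than a member is named where reported. Some genes these rules pick are not reported here. Alternatives were a pseudocount of 0.1, no filter, a mean of at least 5 FPKM, median-ratio scaling, quantile normalization, a replicate block, a fit restricted to the compared groups, a GC and length correction, and leaving out each library. Leaving out the 4 oeWDR76 libraries, and the block together with the correction, were added after the data were seen.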

Additional observations from a re-analysis of the deposited data

Results flagged for a closer look

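For 5 members the difference of erastin responses between states was past the threshold of its limma contrast. The members were chosen with results of these data in view, so these differences are listed as a description and support nothing further. Of all genes, 20.8% were called in siDCAF8 against siNS, 14.1% in oeWDR76 against siNS and 23.5% in siDCAF8+siLSH against siDCAF8. Erastin itself changed 37.5% of all genes past the threshold in siNS and 1.45% in oeWDR76. TGFBI responded differently in siDCAF8 than in siNS, by 0.7321 ± 0.117 log2, and in oeWDR76 than in siNS, by 0.7225 ± 0.117. In both pairs it fell with erastin in siNS (from 7.66 and 7.44 to 3.92 and 4.76 FPKM) and differed by 0.05 and 0.04 ± 0.08, not called, in the others. These 2 differences were past the threshold in each alternative run.

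The remaining differences of responses were less firm. FN1 responded differently in oeWDR76 than in siNS by 0.5269 ± 0.126 log2, a call lost without oeWDR76 replicate 2 (0.45) and without a filter on low values. CTHRC1 differed there by 0.449 ± 0.118, lost without siNS replicate 1 (0.38), siNS/Erastin replicate 2 (0.41), oeWDR76 replicate 2 (0.35), or oeWDR76/Erastin replicate 1 or 2 (0.45 each). FBN1 differed by 0.4121 ± 0.120, lost without siNS replicate 1 (0.35), siNS/Erastin replicate 1 (0.43) or 2 (0.39), oeWDR76 replicate 2 (0.36), or oeWDR76/Erastin replicate 1 (0.42) or 2 (0.40), and without a filter on low values. FN1 and FBN1 stood at 111 to 123 and 1.96 to 2.18 FPKM in oeWDR76 with or without erastin.

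Between siDCAF8+siLSH and siDCAF8, FN1 differed in its erastin response by 0.3804 ± 0.126 log2 and THBS2 by 0.3255 ± 0.101. Both calls were lost without siDCAF8 replicate 1 (0.27 and 0.28), siDCAF8/Erastin replicate 1 (0.30 and 0.28), siDCAF8+siLSH replicate 2 (0.23 and 0.22), and siDCAF8+siLSH/Erastin replicate 1 (0.38 and 0.36) or 2 (0.38 and 0.29). Neither call held without a filter on low values, in a fit of only the groups compared, or after the GC and length correction (0.28 and 0.21). The FN1 call was also lost with median-ratio scaling (0.35), with quantile normalization (0.32) and without the 4 oeWDR76 libraries.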

How the results depend on the processing

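Of 978 values of single members under alternatives that keep every library or drop the oeWDR76 state, 927 kept their direction and their side of the threshold, as did 1586 of 1648 with 1 library left out. Direction changed only where the main difference was not called. With median-ratio scaling, FN1 with erastin in oeWDR76 was -0.00097 and TNC in untreated oeWDR76 against siNS was -0.0221. With quantile normalization, SPARC in untreated siDCAF8+siLSH against siNS was -0.0325. With the GC and length correction, with or without the replicate block, TGFBI in untreated oeWDR76 against siNS was -0.118 and TNC in untreated siDCAF8+siLSH against siNS was 0.0624. With 1 library left out, erastin differences ran from -0.0117 to 0.109 for THBS1 in siNS, from -0.0185 to 0.1159 for TGFBI in siDCAF8, from -0.0591 to 0.137 for TGFBI, -0.09135 to 0.00722 for FBN1, -0.0640 to 0.08012 for FN1 and -0.0470 to 0.0591 for THBS1 in oeWDR76, and from -0.238 to 0.0660 for FN1 and -0.0106 to 0.1971 for THBS2 in siDCAF8+siLSH. TNC ran from -0.0125 to 0.0923 in untreated oeWDR76 and from -0.06679 to 0.00655 in untreated siDCAF8+siLSH, both against siNS. The cause of these changes was not tested.

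Counts of called genes moved by more than 1.5 times in few comparisons. Called members went to 1 with erastin in oeWDR76 (mean of at least 5 FPKM) and to 2 with erastin in siDCAF8+siLSH (that filter, or a fit restricted to the compared groups). At that filter TNC (mean 4.09 FPKM) and THBS1 (1.48) were not tested. For differences of erastin responses, called members went to 2 in siDCAF8 against siNS (that filter, median-ratio scaling, quantile normalization, or a fit restricted to the compared groups) and to 2 in oeWDR76 against siNS (no filter). In siDCAF8+siLSH against siDCAF8 they went to 0 (no filter, a fit restricted to the compared groups, or the correction with or without the block) and to 1 (median-ratio scaling, quantile normalization, or without the oeWDR76 libraries). Listed matrix genes went to 8 with erastin in oeWDR76 (a fit restricted to the compared groups), and for differences of responses to 10 and 7 in siDCAF8 and oeWDR76 against siNS (no filter) and to 18 (no filter) and 4 (the correction, with or without the block) in siDCAF8+siLSH against siDCAF8. With 1 library left out, members ran from 1 to 2 and listed genes from 2 to 5 with erastin in oeWDR76, and from 2 to 4 and 15 to 33 in siDCAF8+siLSH. For differences of responses the ranges were 1 to 2 and 5 to 19 in siDCAF8 against siNS, 1 to 4 and 6 to 15 in oeWDR76 against siNS, and 0 to 2 and 12 to 31 in siDCAF8+siLSH against siDCAF8. Over all alternatives, all genes called ran from 27 to 270 with erastin in oeWDR76 and from 1247 to 2530 in siDCAF8+siLSH. For the differences of responses they ran from 1315 to 2603, from 906 to 1973 and from 267 to 3003 in the same order.

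Libraries share replicate numbers across groups, and what a number marks is not stated. In 28 pairs of groups the deviations of same-numbered libraries correlated from -0.208 to 0.389, and 7 pairs were over 0.1. These values cannot settle whether same-numbered libraries share a culture or a day. With the replicate block alone no call of a member changed, and 5 members stayed called with erastin in siNS.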

Other observations

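Differences of erastin responses in the other matrix genes were largest in number for siDCAF8+siLSH against siDCAF8, where 24 of the 77 listed genes were higher and 5 lower, against 14.2% and 9.24% of all genes. The processing and crosslinking genes had 9 higher and 0 lower of 15, among them the lysyl oxidase relatives LOXL1 (0.48 ± 0.09 log2, limma adjusted p = 0.0038) and LOXL2 (0.45 ± 0.09, 0.0057), BMP1, the procollagen C-proteinase (0.55 ± 0.11, 0.0043), and transglutaminase 2, encoded by TGM2 (0.40 ± 0.09, 0.0066). The proteoglycan agrin, encoded by AGRN, fell with erastin from 60.7 to 38.1 FPKM in siDCAF8 and stood at 34.3 and 33.2 FPKM without and with erastin in siDCAF8+siLSH. Its difference of responses was 0.62 ± 0.10 log2, and 0.24 after the GC and length correction. Untreated, AGRN in siDCAF8+siLSH against siDCAF8 was -0.81, and -0.46 after that correction. After the GC and length correction 4 of the 77 were called, 4 higher and 0 lower. LOXL1, LOXL2, BMP1 and TGM2 were not among them, at 0.14, 0.21, 0.27 and 0.21. Without siDCAF8 replicate 1 the count was 14, and without siDCAF8+siLSH replicate 2 it was 12. Over all alternatives, the number of all genes called in this comparison ran from 267 to 3003, against 2642 in the main fit. The share of all genes in each of these runs is not given here, so nothing is read from the lower counts.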
